A study of Mus musculus with 22 samples.

Results

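White adipose tissue (WAT) of mice collected 24 h after thyroid hormone (TH) was compared with WAT of mice that had received propylthiouracil (PTU), a drug that blocks the synthesis of TH, and no TH. The 4 libraries labelled as TH-treated for 24 h and the 4 labelled as hypothyroid after 2 weeks of PTU make up 8 of the 22 libraries of the series, the others being 4 WAT libraries taken 6 h after TH and 10 of striatum. All animals were wild-type C57BL/6J males of 8 weeks by their labels, each library carrying a label of its own and none stating that animals were pooled. The labels of the TH groups do not name PTU, but the design text describes TH given to hypothyroid mice, and the study's overview lists PTU in the food followed by a single injection of T3 and T4. Neither the fat depot nor the hour of collection is given.

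TH acts through nuclear receptors, TRα1 and TRβ, which bind DNA with RXR and switch from repression to activation when T3 binds. In fat it is known to raise both the making and the burning of lipid, and it drives brown adipocytes, and adipocytes of white depots that acquire brown features, to make the uncoupling protein UCP1. White adipocytes store triglyceride in a single droplet coated with perilipin and CIDE proteins, take up fatty acids through lipoprotein lipase and CD36, and secrete hormones such as adiponectin. The comparison addresses which of these programmes had a different RNA level 1 day after TH was restored.

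The PTU libraries held 18.4 to 24.4 M counts, the 24 h libraries 19.3 to 22.3 M and the 6 h libraries 17.3 to 27 M. Normalised counts are counts rescaled to the average effective size of the 12 WAT libraries. The genes whose normalised count averaged more than 10 were compared with edgeR's quasi-likelihood F test, and a gene was called at a Benjamini-Hochberg adjusted p under 0.05 with no minimum fold. Changes are given as log2 of 24 h over PTU with the SE from the fit. A fold is the same fitted change without the log, and every adjusted p is of this test unless another tool is named. Where 4 values are given for a group they are normalised counts of replicates 1, 2, 3 and 4. In whole tissue, fewer cells of a type and less RNA per cell cannot be told apart.

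Of 17928 genes tested, 3060 (17.1%) were called, 1336 (7.45%) higher and 1724 (9.62%) lower at 24 h. These percentages are the background against which the gene lists below are read, beside a median log2 change of -0.00199 over all genes tested. The size of the change was over 1 on the log2 scale for 338 of the calls that were higher and 460 of those that were lower, and under 0.5 in size for 890 calls. The 4 values at 24 h lay entirely above or below the 4 PTU values for 2570 of the calls, 1149 higher and 1421 lower, while 19.3% of all genes tested were separate in this way.

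**Figure D1:**
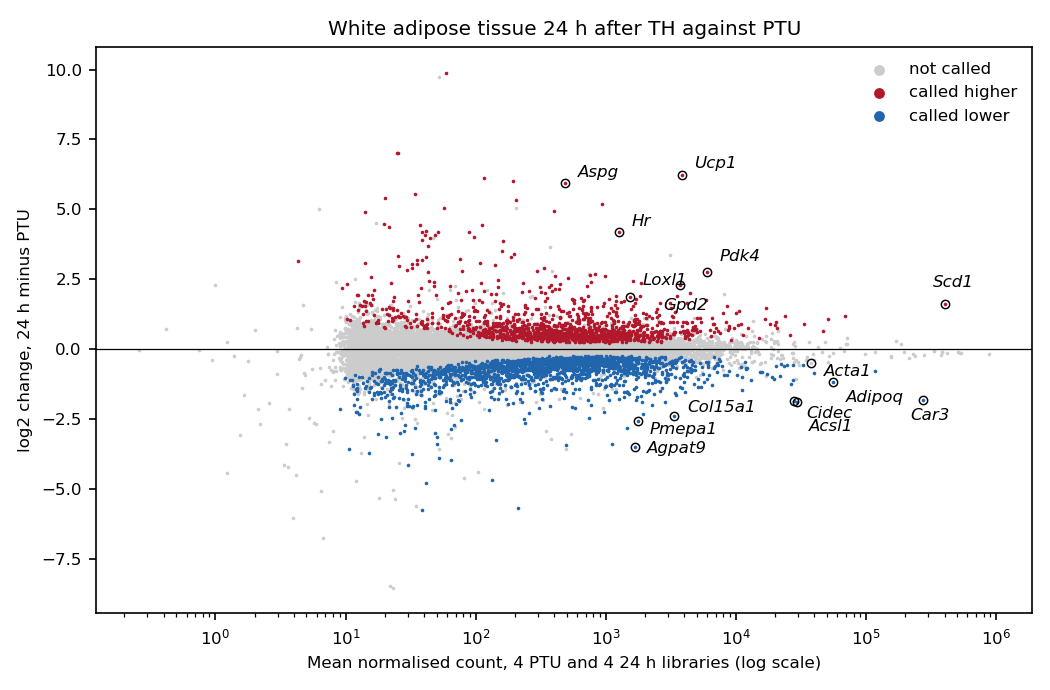
Each point is 1 of the genes tested, with its mean normalised count over the 8 libraries (x, log scale) against its log2 change (y), red where called higher and blue where called lower. Scd1 is among the most abundant genes, with a rise of 1.62, Car3 is the most abundant named gene to fall (-1.81), and the muscle gene Acta1 lies among the genes not called.

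Before the pathways, the tissue label and the content of other tissues were examined. Adipocyte markers had 440400 to 557000 normalised counts at 24 h and 572300 to 734700 in the PTU group, summed over 9 genes, and none was at 0. Of these, 4 were called lower and 1 higher (median -0.30), the latter lost in 10 of the 12 fits that left out 1 library. Markers of epididymis, the organ next to one fat depot, summed to at most 11.53 normalised counts in any of the 8 libraries, and 0 of 8 passed the filter. Leukocyte, endothelial, Schwann and erythroid markers had few calls in these lists, with 1 of 9 macrophage and 1 of 6 B cell genes higher, and 0 of 7 T cell, 0 of 3 neutrophil, 0 of 10 endothelial, 0 of 4 lymphatic, 0 of 6 Schwann and 0 of 5 erythroid genes called by edgeR. In these last 6 lists 5, 1, 4, 0, 2 and 3 genes had an unadjusted p under 0.05, and DESeq2 called 1, 0, 1, 0, 1 and 2. The change was positive for 7 of 7 T cell, 6 of 6 B cell and 3 of 3 neutrophil genes (median 0.62, 0.49 and 1.76). It was positive for 0 of 10 endothelial and 0 of 5 erythroid genes (-0.38 and -0.87). Macrophage, lymphatic and Schwann genes went both ways, with 4 of 9, 3 of 4 and 3 of 6 positive. These shifts of whole lists were not tested. The macrophage and B cell calls were lost in 9 of the 12 fits that left out 1 library. PTU replicate 1 stood apart in markers of mesothelium, the lining of the abdominal organs, with a sum of 867.5 normalised counts against 73.03 to 75.01 in the other PTU libraries and 55.28 to 82.78 at 24 h. Of the 8 markers in this list 4 were tested, 2 were called lower and 1 had a positive change. Both calls are of keratins, given next, and much of the sum in PTU replicate 1 was theirs. Whether mesothelium itself was present was not tested. Krt18, a keratin of simple epithelia, had 307, 7.18, 2.71 and 6.15 in the PTU libraries. Krt19, its relative, had 319.9, 16.8, 14.4 and 18.4, so that for both PTU replicate 1 was far above the rest. The calls of Krt18 and Krt19 as lower at 24 h (adjusted p 0.0381 and 0.0382) rested on few libraries. Without PTU replicate 1 the adjusted p of Krt19 was 0.206. Krt18 then no longer passed the filter and was not tested, so it entered the comparison only through that library. Leaving out any 24 h library or 6 h replicate 1 ended both calls (0.0518 to 0.0996). Of 9 markers of stratified epithelium 3 were called lower (median -3.13), and 1 without 24 h replicate 3. Their summed counts were 448.9 to 857.2 in the PTU libraries and 212.5 to 253.1 at 24 h, but 2043 and 4906 in 6 h replicates 1 and 3. The filter used the mean of all 12 WAT libraries, so members could pass it through the 6 h group with low counts in the 8 compared. Of 8 smooth muscle and pericyte genes 1 was called lower, and 0 without any of PTU replicates 2 and 3 and the 24 h libraries.

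Skeletal muscle genes differed between libraries in a way that did not follow the groups. The summed normalised counts of 27 genes of fast muscle were 322600, 5550, 7283 and 773800 in the PTU libraries and 254300, 409100, 57170 and 116100 at 24 h, against 2607 to 139200 at 6 h. They took 1.5% and 3.6% of the counts in PTU replicates 1 and 4, 0.0258% and 0.0339% in PTU replicates 2 and 3, and 0.266% to 1.9% at 24 h. The PTU group therefore held both the highest and the lowest values of these 8 libraries, and the 24 h group lay between them. Acta1, the actin of skeletal muscle, had 48884, 577, 1162 and 127310 in the PTU libraries and 35421, 63269, 8969 and 16958 at 24 h, a difference of -0.51 ± 1.41 (SE, adjusted p 0.831). Ckm (muscle creatine kinase) and Mylpf (a fast myosin light chain) had the same order of libraries, with differences of -0.31 ± 1.55 and -0.58 ± 1.45 (adjusted p 0.909 and 0.810). Of the 27 fast genes 0 were called by edgeR (median -0.50), 0 had an unadjusted p under 0.05 and DESeq2 called 0. The list's fitted changes, which compare group means, had the opposite sign to the mean log2 of its sum, which was 1.524 higher at 24 h. Without PTU replicates 1 and 4, chosen after their muscle counts were seen, the mean log2 of the fast sum was 4.678 higher at 24 h and 8 of the genes were called higher, Acta1 among them (5.16 ± 1.65, adjusted p 0.0478), and without PTU replicates 2 and 3 the difference was -1.624 and 0 were called.

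The ratio of slow to fast muscle counts also differed. Counts of 7 slow muscle genes per 100 counts of fast genes were 1.5, 1.32, 0.446 and 0.416 in the PTU libraries, 0.291 to 1.08 at 6 h and 0.052, 0.0737, 0.145 and 0.0696 at 24 h, so all 4 values at 24 h were below all others. Summed slow counts were 4832, 73.03, 32.48 and 3218 in the PTU libraries. At 24 h they were 132.2, 301.6, 82.78 and 80.79, and at 6 h 28.15 to 575.1. PTU replicates 2 and 3 thus had slow sums below all values at 24 h, and their higher ratios came with low fast sums. Of the PTU libraries only replicates 1 and 4 had slow sums above those at 24 h, as did 6 h replicate 3 (575.1). Myl2, the light chain of slow and cardiac myosin, had 953, 8.38, 0.902 and 697 in the PTU libraries and 1.93, 20.4, 8.49 and 0 at 24 h, and Tnnt1, slow troponin T, had 557, 15.6, 10.8 and 448 in the PTU libraries and 9.65, 15.5, 10.6 and 3.32 at 24 h. Their changes were -5.70 ± 1.71 and -4.69 ± 1.28 (adjusted p 0.0378 and 0.0256), and 3 of the 7 slow genes were called lower. These calls rested on PTU replicates 1 and 4. Without PTU replicate 1 the count was 1, without PTU replicate 4 or any 1 of the 24 h libraries it was 0, and without both PTU libraries it was 0 and Myl2 changed by 0.86 ± 1.88 (adjusted p 0.770). The adjusted p of Myl2 was 0.065 without PTU replicate 1, 0.0674 without PTU replicate 4 and 0.0603 to 0.0967 without 1 of the 24 h libraries, and that of Tnnt1 was 0.0502 without PTU replicate 4 and 0.0526 to 0.0672 without 1 of the 24 h libraries. With the log2 of the fast sum as a covariate all 7 slow genes were called lower, Myl2 with -5.48 ± 0.73 (adjusted p 0.000495) and Tnnt1 with -4.56 ± 0.46 (adjusted p 7.02e-05).

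**Figure D2:**
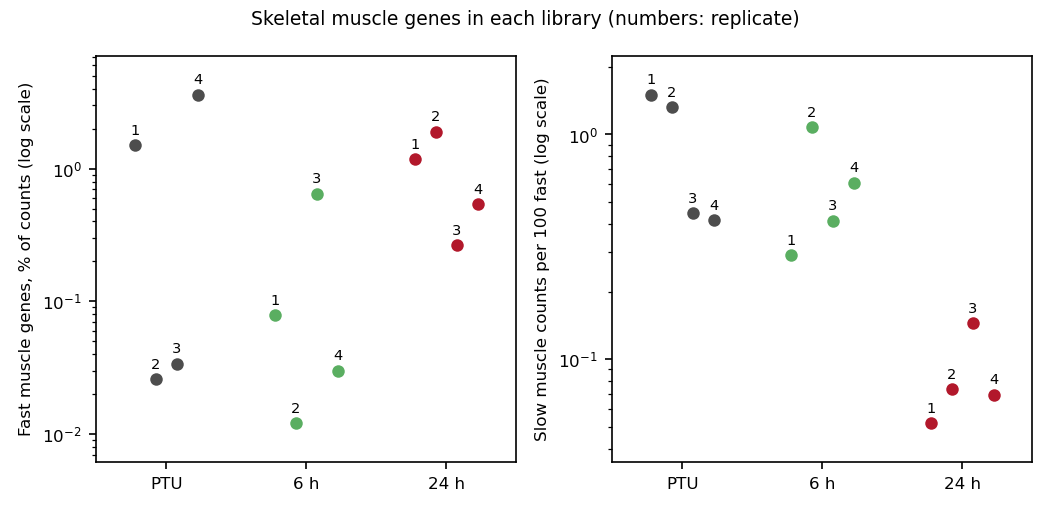
Left, the share of all counts taken by 27 fast skeletal muscle genes in each library, and right, slow muscle counts per 100 fast counts, both on log axes with replicate numbers beside the points. The PTU libraries span 0.0258% to 3.6% and enclose the 24 h group (0.266% to 1.9%), whereas on the right the 4 libraries at 24 h (0.052 to 0.145) lie below the 4 PTU libraries (0.416 to 1.5). PTU replicates 2 and 3 had slow sums of only 73.03 and 32.48 normalised counts, below those at 24 h.

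Because of this spread each count below was recomputed with the muscle covariate, without PTU replicates 1 and 4 (high muscle) and without PTU replicates 2 and 3 (low muscle). With the covariate 2551 of the 3060 calls were kept in the same direction and 191 others were made. Without the high-muscle PTU libraries 2486 were kept and 1416 added, and without the low-muscle ones 1285 were kept and 154 added. Of 101 genes followed through every alternative 98 were called, and of these 98 were also called with the covariate, 93 without the high-muscle libraries and 80 without the low-muscle libraries. The 18 calls lost without the low-muscle libraries were those of Glul, Cox7a1, Cox8b, Mlxipl, Thrsp, G0s2, Pdk4, Ndufb10, Ndufs8, Uqcrc1, Mrpl12, Hspd1, Pygl, Pde3b, Inhbb, Fstl1, Pparg and Zfp423, with adjusted p of 0.0572 to 0.244. The part of muscle RNA in the other results was not tested beyond these fits.

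**Figure D3:**
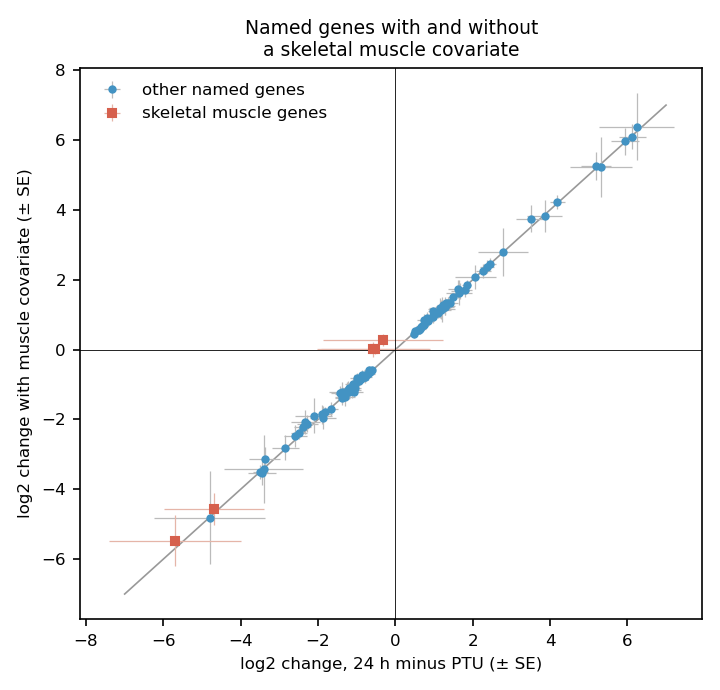
Log2 change of each named gene without (x) and with (y) the summed fast muscle counts as a covariate, with bars of 1 SE on both axes and the line of equality. Acta1, among the muscle genes in red, moves from -0.51 to 0.01 while the genes outside skeletal muscle move by at most 0.253.

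Several genes known to respond directly to T3 rose, while a TH transporter fell. Of 22 tested genes of TH action (receptors, coregulators, deiodinases, transporters and classical targets), 7 were called higher and 3 lower, with a median change of 0.36 and the same counts with the covariate. Without the low-muscle PTU libraries 6 were called higher and 1 lower. Hr, which encodes the corepressor Hairless and is a classical target of the receptor, had 118, 149.7, 167 and 91 in the PTU libraries and 2738, 2367, 2212 and 2307 at 24 h, 18.2-fold more (adjusted p 2.15e-07). Gpd2, the mitochondrial glycerol-3-phosphate dehydrogenase that feeds electrons from cytosolic NADH into the respiratory chain, rose from 1752, 1022, 1187 and 1097 to 6184, 4896, 7519 and 5904, a change of 2.28 ± 0.20 (SE, adjusted p 2.41e-05). Klf9, a transcription factor induced by T3 in many tissues, had 531 to 888 in the PTU libraries and 1454 to 2188 at 24 h (adjusted p 0.000362). Thrsp (Spot 14), named for its response to TH in liver, had 78963, 32888, 29419 and 25794 in the PTU libraries and 103440, 59027, 108570 and 111850 at 24 h, so that the groups overlapped through PTU replicate 1. Its change of 1.20 ± 0.35 (SE, adjusted p 0.0341) lost the call without PTU replicate 2, 3 or 4 or 24 h replicate 1, 3 or 4, with adjusted p of 0.0726 to 0.101, and without the low-muscle PTU libraries (0.244). Slc16a10, a transporter of T3 and aromatic amino acids, fell from 441, 538, 529.7 and 440.2 to 272, 257, 265 and 225, a change of -0.93 ± 0.11 (SE, adjusted p 0.000148).

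Thermogenic genes formed the list with the largest share of calls among the 36 pathway lists. Of 27 tested, 18 were called higher and 0 lower, a share of 66.7% against 7.45% of all genes, with a median change of 1.28. The count was 12 to 18 when 1 library was left out, 18 with the covariate, 15 without the high-muscle and 11 without the low-muscle PTU libraries. Ucp1, the proton channel that turns respiration into heat (chromosome 8, 83290352 to 83298452), had 4.8, 20.4, 268 and 101 in the PTU libraries and 2876, 11616, 12352 and 3321 at 24 h, and 1641, 2441, 3941 and 3107 at 6 h. All TH libraries were above all PTU libraries, replicates 2 and 3 at 24 h were well above replicates 1 and 4, and the PTU values themselves differed widely. The change was 6.24 ± 0.96 (SE, adjusted p 0.00110) and the difference from 6 h missed the threshold (1.44 ± 0.77, adjusted p 0.278).

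Dio2, the deiodinase that makes T3 from T4 inside the cell (chromosome 12, 90724552 to 90738438), had 6.72, 5.99, 17.1 and 8.61 in the PTU libraries and 113, 813, 602 and 70.8 at 24 h, a change of 5.32 ± 0.80 (SE, adjusted p 0.000896). As for Ucp1, replicates 2 and 3 at 24 h exceeded replicates 1 and 4. Ppargc1a, the coactivator PGC-1α that drives mitochondrial genes, rose from 61.5, 68.2, 90.2 and 77.5 to 281, 504, 370.4 and 393, a change of 2.38 ± 0.18 (SE, adjusted p 8.87e-06). Acot11, a thioesterase also known as THEM1, which is induced by cold in brown fat, had 44.2, 41.9, 71.3 and 39.4 in the PTU libraries and 2030.5, 777, 2390 and 2067 at 24 h (change 5.19 ± 0.39, adjusted p 8.87e-06), and 20.9% of its exonic bases are shared with Fam151a on the other strand. Cox7a1 and Cox8b encode subunits of cytochrome oxidase found in brown fat and in striated muscle. Cox7a1 had 143, 44.3, 55 and 359 in the PTU libraries, highest in those with much muscle RNA, and 531, 762, 768 and 445 at 24 h, a change of 2.07 ± 0.53 (SE, adjusted p 0.0182). Its change was 2.07 with the muscle covariate, 2.95 without PTU replicate 4, 3.65 without the high-muscle PTU libraries and 1.33 without the low-muscle ones, where its call was lost (adjusted p 0.0683). Cox8b rose from 1268, 831, 975 and 1456 to 2260.1, 2715, 3865 and 2150.3, a change of 1.28 ± 0.24 (SE, adjusted p 0.00398). Cidea, Prdm16 and Elovl3, also of the list, were among the 9 members not called. They are named here after their values were seen, with changes of 0.93 ± 0.34 (adjusted p 0.0811), 0.34 ± 0.17 (0.201) and 0.44 ± 0.61 (0.657).

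**Figure D4:**
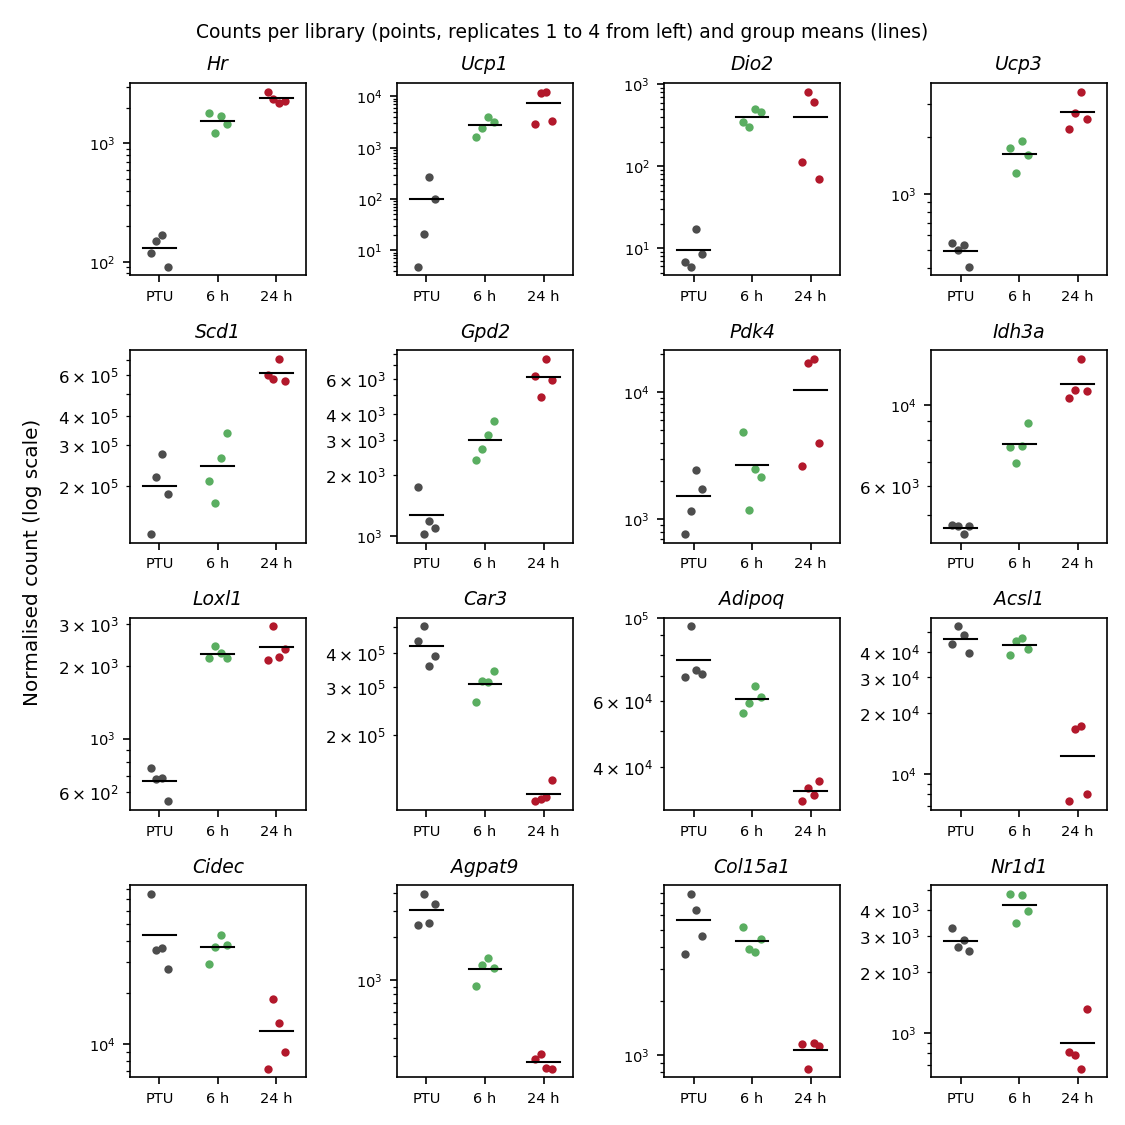
Normalised counts on log axes of 16 named genes in each PTU, 6 h and 24 h library, with lines at the group means. Every gene shown has its 4 values at 24 h wholly above (first 9 panels) or wholly below (last 7) its 4 PTU values, and Ucp1, Dio2 and Pdk4 split into 2 high and 2 low libraries at 24 h. Such separation was required of the genes named for the largest rises, falls or differences in counts.

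To show the DNA next to the start of transcription of genes that moved in both directions, promoter windows were taken from RefSeq on GRCm38.p6, with 250 bases before the start and 50 after it, written in the direction of transcription. Capitals mark AGGTCA, the hexamer half-site that TR and other nuclear receptors bind, searched on both strands (TGACCT on the other). Ucp1 (chr8:83290098-83290397, plus strand), Ucp3 (chr7:100472741-100473040, plus strand) and Glul (chr1:153899679-153899978, plus strand) rose, and Cat (chr2:103485104-103485403, minus strand) and Adipoq (chr16:23146286-23146585, plus strand) fell.
Ucp1: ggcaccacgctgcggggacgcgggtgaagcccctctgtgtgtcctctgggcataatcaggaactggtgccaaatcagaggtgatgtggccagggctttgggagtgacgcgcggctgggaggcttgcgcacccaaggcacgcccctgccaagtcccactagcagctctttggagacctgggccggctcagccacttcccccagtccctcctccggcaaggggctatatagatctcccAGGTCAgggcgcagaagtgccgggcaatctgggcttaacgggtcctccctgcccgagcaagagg
Ucp3: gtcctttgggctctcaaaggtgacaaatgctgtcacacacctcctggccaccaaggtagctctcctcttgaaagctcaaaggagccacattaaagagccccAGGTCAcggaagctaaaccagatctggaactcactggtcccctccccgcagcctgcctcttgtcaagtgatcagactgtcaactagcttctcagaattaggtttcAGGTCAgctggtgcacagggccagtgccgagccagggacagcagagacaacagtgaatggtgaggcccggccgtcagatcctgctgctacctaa
Glul: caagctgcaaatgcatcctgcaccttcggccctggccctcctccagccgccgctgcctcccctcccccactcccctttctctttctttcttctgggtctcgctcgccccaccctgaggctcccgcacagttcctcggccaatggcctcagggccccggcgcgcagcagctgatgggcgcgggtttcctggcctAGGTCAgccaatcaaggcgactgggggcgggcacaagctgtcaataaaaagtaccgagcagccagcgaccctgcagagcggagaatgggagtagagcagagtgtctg
Cat: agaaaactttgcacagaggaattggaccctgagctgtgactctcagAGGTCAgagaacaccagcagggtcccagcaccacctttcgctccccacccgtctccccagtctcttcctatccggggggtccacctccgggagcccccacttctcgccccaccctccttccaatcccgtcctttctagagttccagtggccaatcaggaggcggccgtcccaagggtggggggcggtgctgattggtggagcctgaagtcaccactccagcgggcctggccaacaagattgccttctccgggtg
Adipoq: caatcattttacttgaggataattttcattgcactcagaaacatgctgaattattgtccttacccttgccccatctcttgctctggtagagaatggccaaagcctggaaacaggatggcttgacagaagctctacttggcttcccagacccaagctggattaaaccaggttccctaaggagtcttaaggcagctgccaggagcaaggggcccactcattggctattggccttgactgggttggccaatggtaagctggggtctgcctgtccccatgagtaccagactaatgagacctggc
The windows of Ucp1, Glul and Cat each hold 1 half-site, that of Ucp3 holds 2 and that of Adipoq none. The genes shown do not stand for all named genes. The windows of Aspg, Dio2, Acot11, Adcy10 and Lhfpl2, also named here, hold none. A half-site stood in 16.3% of all 32851 windows, in 13.7% of 1134 windows of genes called higher, in 12.0% of 1610 windows of genes called lower and in 12.9% of 11253 windows of genes tested and not called. A pair of half-sites in a row with 4 bases between, the arrangement TR prefers, was searched as GGTCA followed after 5 bases of any kind by a further GGTCA, so that the first base of each half-site was free. It occurred in 25 of all windows, in 0 of those of genes called higher, in 1 of those of genes called lower and in 5 of those of genes not called. These are letters in short windows and say nothing of binding, and Hr, Scd1 and Car3 have no window in the table.

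Genes of lipid synthesis rose in part. Of 25 tested genes of fatty acid and triglyceride synthesis, 7 were called higher and 1 lower (median 0.35). The count of 7 held with the covariate and without the high-muscle PTU libraries, but it was 4 without PTU replicate 2 or 24 h replicate 3 and 2 without the low-muscle PTU libraries. Scd1, stearoyl-CoA desaturase, which makes oleate, had 123560, 217130, 274030 and 184780 in the PTU libraries and 604680, 577300, 705100 and 567560 at 24 h. The groups were separate and Scd1 had the largest difference in counts of any gene called higher, 3.07-fold (1.62 ± 0.25, adjusted p 0.00110). Mlxipl, the carbohydrate-responsive factor ChREBP, rose from 3526, 1670.1, 1957 and 1014 to 7955, 3608, 5992 and 7954 (1.64 ± 0.34, adjusted p 0.00679). Fasn and Acly, the central enzymes of fatty acid synthesis, were not called (0.28 ± 0.35 and 0.24 ± 0.36, adjusted p 0.617 and 0.673) and are named after their values were seen. In contrast, 2 enzymes of glycerolipid assembly fell. Agpat9 (now Gpat3), which is in no list, is the acyltransferase of the first step in adipocytes and had 2410.4, 3972, 2493 and 3388 in the PTU libraries and 286, 309, 247 and 243 at 24 h, 11.3-fold less (-3.50 ± 0.19, adjusted p 9.39e-07), and 30.0% of its exonic bases are shared with a gene on the other strand. Dgat1, which completes triglyceride, fell from 3088, 3874, 4074 and 3393 to 1429, 1419.8, 1919 and 1628 (-1.17 ± 0.13, adjusted p 9.39e-05).

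Genes of the lipid droplet and of fatty acid uptake were among the most abundant to fall. In the list of lipolysis and lipid droplet, 7 of 29 tested were called lower and 1 higher (median -0.23, 5 to 10 lower and 0 to 3 higher when 1 library was left out), with 6 lower under the covariate, 11 without the high-muscle and 3 without the low-muscle PTU libraries. Cidec, the droplet protein that gives white adipocytes a single large droplet, had 75420, 35432, 36296 and 27439 in the PTU libraries and 7194, 18453, 13270 and 8988 at 24 h, a change of -1.87 ± 0.34 (SE, adjusted p 0.00308). Plin1, perilipin 1, which guards the droplet against lipases, fell from 21281, 24250, 24193 and 19707 to 10922, 11255, 15233 and 10861 (-0.89 ± 0.14, adjusted p 0.00102). G0s2, an inhibitor of the lipase ATGL, had 2349.9, 7560.2, 6946 and 5407 in the PTU libraries and 1788, 1358, 3241 and 2127 at 24 h, with groups that overlapped through PTU replicate 1 (-1.39 ± 0.33, adjusted p 0.0130). Lpl, lipoprotein lipase, fell from 123260, 187760, 135900 and 144040 to 80447, 84971, 91979 and 86792 (-0.78 ± 0.14, adjusted p 0.00284). Cd36, the fatty acid translocase, fell from 44764, 63062, 53855 and 42867 to 25028, 31966, 29825 and 25729 (-0.86 ± 0.14, adjusted p 0.00151). Acsl1, the main acyl-CoA synthetase of adipocytes, fell from 43773, 53510, 48580 and 39482 to 7361, 16760, 17269 and 7997, 3.75-fold (-1.91 ± 0.26, adjusted p 0.000505). All 4 values at 24 h were below all PTU values for these genes, G0s2 excepted. For Cidec, Lpl and Acsl1 this was a condition of being named.

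Of 31 tested genes of fatty acid uptake and oxidation 8 were called higher (median 0.07). The 3 called lower, a share near the 9.62% of all genes, were Acsl1, Cd36 and Acot2. The 8 became 3 without PTU replicate 2 or 24 h replicate 2 or 3, 4 without PTU replicate 3 or 4 and 5 without 6 h replicate 1, and 7, 5 and 1 with the covariate and without the high-muscle and the low-muscle PTU libraries. Pdk4, the kinase that shuts pyruvate dehydrogenase when fatty acids are burned, had 769, 1155, 2444 and 1747 in the PTU libraries and 2627, 17060, 18163 and 3946 at 24 h, with replicates 2 and 3 again the highest (2.77 ± 0.65, adjusted p 0.0120). Its call was also lost without the high-muscle PTU libraries (adjusted p 0.0586). Acaa2, the last enzyme of mitochondrial beta-oxidation, rose from 2519, 3030.1, 3227 and 2236 to 3926, 4982, 6453 and 4163 (0.83 ± 0.17, adjusted p 0.00537). Acot2, a mitochondrial thioesterase, fell from 587, 581, 579 and 534 to 209, 363, 227 and 302 (-1.05 ± 0.17, adjusted p 0.00165).

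The tricarboxylic acid cycle had the second largest share of genes called higher. Of 21 tested genes of the cycle and of pyruvate entry, 10 were called higher and 1 lower (median 0.47), and the number higher was 10 to 15 when 1 library was left out, 10 with the covariate, 12 without the high-muscle and 4 without the low-muscle PTU libraries. Pdhb and Dlat encode subunits of pyruvate dehydrogenase, which admits pyruvate to the cycle. Pdhb rose from 7840.3, 5836, 4621 and 5262 to 14802, 12866, 16990 and 15590 (1.35 ± 0.19, adjusted p 0.000565) and Dlat from 3898, 3039.6, 2721 and 2997 to 6946, 5751, 7972 and 6449 (1.10 ± 0.15, adjusted p 0.000399). Idh3a, the catalytic subunit of the NAD-dependent isocitrate dehydrogenase, rose from 4693, 4675, 4441 and 4675 to 10417, 10969, 13318 and 10907 (1.30 ± 0.11, adjusted p 1.77e-05), and its PTU values spread by less than those of any other gene in this paragraph. Suclg1, a subunit of succinyl-CoA ligase, rose from 2102, 2108, 1857 and 2365 to 3752, 4254, 4879 and 3764 (0.98 ± 0.11, adjusted p 0.000128).

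Genes of the respiratory chain were called in part, and not in every complex. Nuclear genes were called higher for 5 of 37 in complex I (median 0.16), 1 of 4 in complex II (0.24), 4 of 10 in complex III (0.37) and 4 of 16 in complex IV (0.20), and 0 of these were called lower. The 4 of complex IV were Cox7a1, Cox8b, Cox10 and Cox5a. Of these, Cox7a1 and Cox8b were already reported above with the thermogenic genes. Both lost their calls without the low-muscle PTU libraries (adjusted p 0.0683 and 0.0577). Of the 15 nuclear genes of complex V 0 were called by edgeR (median 0.07), 4 had an unadjusted p under 0.05 and DESeq2 called 4. Complexes I and III lost calls without single libraries, to 3 of 37 without PTU replicate 3 or 24 h replicate 3 or 4 and to 2 of 10 without 24 h replicate 3. With the covariate the counts for complexes I to V were 4, 1, 3, 4 and 0. Without the high-muscle PTU libraries they were 8, 1, 6, 6 and 3, and without the low-muscle PTU libraries 0, 0, 0, 1 and 0, so most of these calls were lost without PTU replicates 2 and 3. Uqcrc1, a core subunit of complex III, rose from 4671, 3855, 3763 and 3684 to 5383, 6287, 7051 and 5457 (0.60 ± 0.12, adjusted p 0.00629). Ndufb10 and Ndufs8 of complex I changed by 0.64 ± 0.14 and 0.48 ± 0.11 (adjusted p 0.0101 and 0.0116), and Cox10, which makes the haem of cytochrome oxidase, by 0.85 ± 0.15 (SE, adjusted p 0.00304). Of the 13 protein-coding genes of the mitochondrial genome, 0 were called higher and 2 lower (median -0.18), both lost without any of PTU replicates 2 and 4 and 24 h replicates 1, 2 and 3.

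Further mitochondrial genes rose. Of 77 proteins of the mitochondrial ribosome 16 were called higher and 1 lower (median 0.09), falling to 10 higher without PTU replicate 3, 9 without 24 h replicate 3 and 4 without the low-muscle PTU libraries, with 14 under the covariate. Of 30 genes of mitochondrial biogenesis, import and shape 11 were called higher and 0 lower (median 0.28), with 7 without PTU replicate 2 or 24 h replicate 3, 10 under the covariate and 2 without the low-muscle PTU libraries. Mrpl12, a ribosomal protein that also binds the mitochondrial RNA polymerase, rose by 0.73 ± 0.14 (adjusted p 0.00469), and Hspd1, the chaperonin HSP60, by 0.69 ± 0.16 (adjusted p 0.0104).

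**Figure D5:**
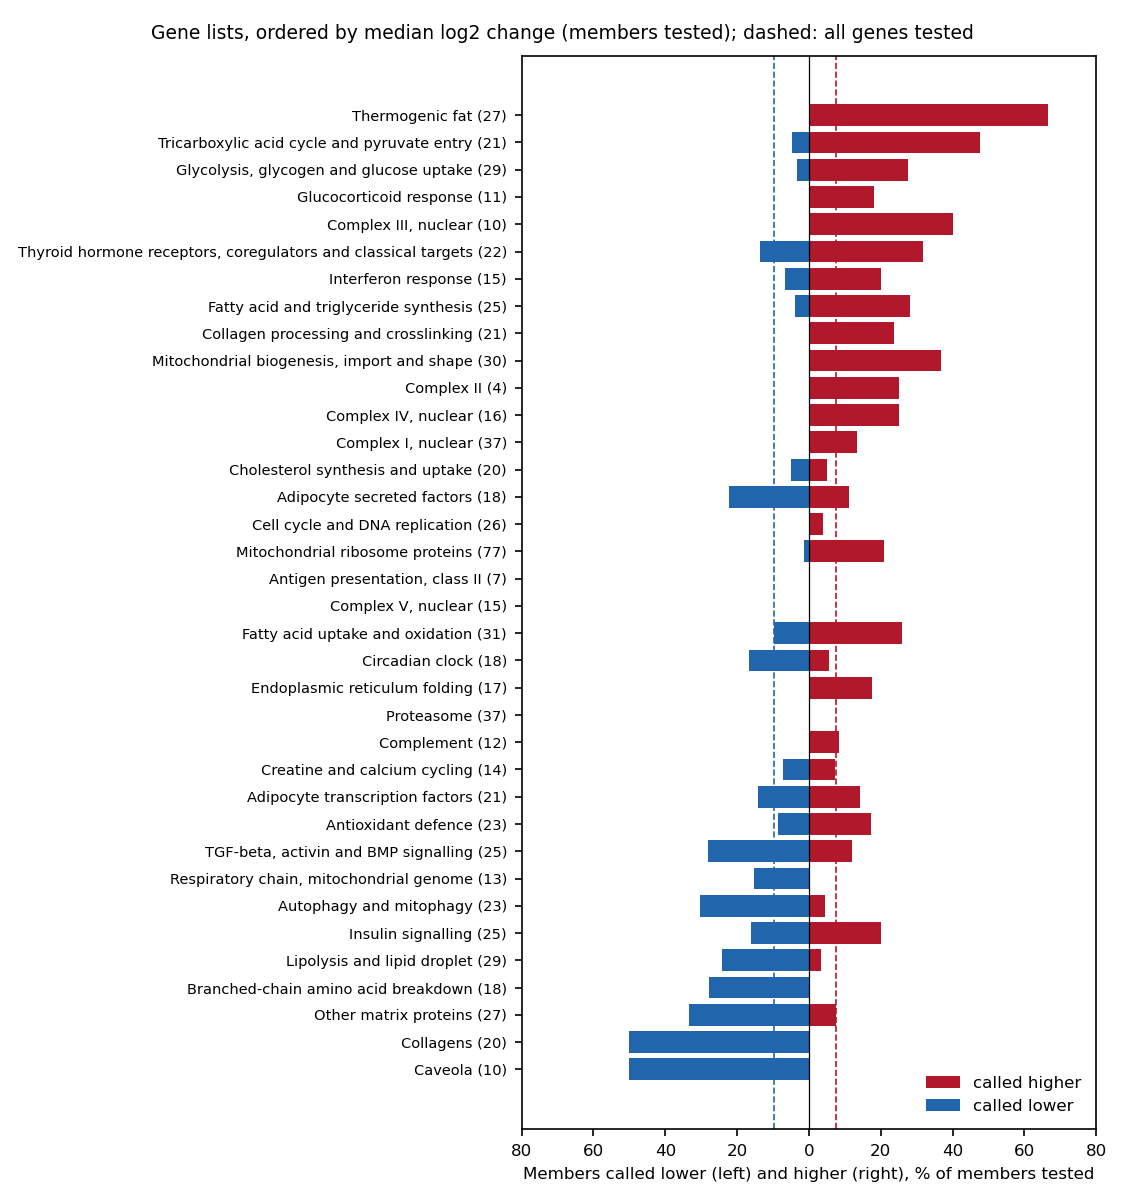
Share of tested members called higher (red, right) and lower (blue, left) for each of the 36 pathway lists, ordered by median log2 change, with the number of members tested in brackets and dashed lines at the share of all genes (7.45% and 9.62%). Thermogenic fat (66.7% higher) and the cycle lie at the top, and collagens and caveola (50% lower each) at the bottom.

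Genes of glucose use rose in part. Of 29 tested genes of glycolysis, glycogen and glucose uptake 8 were called higher and 1 lower (median 0.40), with 8 to 10 higher when 1 library was left out, 8 with the covariate, 17 without the high-muscle and 5 without the low-muscle PTU libraries. This list holds enzymes that skeletal muscle also makes in large amounts, and the 17 calls without the high-muscle libraries came with summed fast muscle counts that were 4.678 higher at 24 h on the log2 scale. Hk2, the insulin-regulated hexokinase, rose from 1841, 1054, 1205 and 1294 to 3623, 3549.5, 3316 and 3928 (1.42 ± 0.19, adjusted p 0.000494). Pfkfb1, which sets fructose 2,6-bisphosphate, rose from 593, 739.9, 525 and 567 to 1395, 1338, 1662 and 1583 (1.30 ± 0.12, adjusted p 3.71e-05). Pygl, the liver form of glycogen phosphorylase, rose by 1.29 ± 0.25 (adjusted p 0.00427). Slc16a1, the lactate transporter MCT1, rose from 1088, 1268, 1344 and 1172 to 2326, 2463, 3868 and 2825 (1.24 ± 0.15, adjusted p 0.000236), although its mean at 6 h was 627.

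Insulin signalling moved in both directions, with 5 of 25 called higher and 4 lower (median -0.19), the 4 becoming 2 without PTU replicate 2 or 24 h replicate 1 and 1 without the low-muscle PTU libraries. Akt1, the kinase at the centre of the pathway, rose by 0.85 ± 0.12, Grb14, an inhibitor of the insulin receptor, by 1.14 ± 0.27, and Foxo1, a factor that AKT inactivates, by 0.52 ± 0.08 (adjusted p 0.000474, 0.0126 and 0.00111). Pde3b, the phosphodiesterase through which insulin restrains lipolysis, fell from 4918, 6119, 5268 and 5269 to 2437, 4114, 3546 and 2470.1 (-0.78 ± 0.16, adjusted p 0.00719).

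Many collagen genes fell, whereas several genes that modify collagen rose. Of 20 collagens tested 10 were called lower and 0 higher (median -0.65), with 7 under the covariate, 12 without the high-muscle and 2 without the low-muscle PTU libraries. The count was 5 without PTU replicate 2 or 3 or 24 h replicate 1 and 6 without 24 h replicate 3. Col15a1, a basement membrane collagen abundant in fat, had 3654, 7913, 6403 and 4614 in the PTU libraries and 1158, 839, 1161 and 1118 at 24 h (-2.40 ± 0.22, adjusted p 3.33e-05). Col6a1, a chain of the collagen VI mesh around adipocytes, fell from 3283, 6392, 4925 and 3589.5 to 2079.7, 2530.2, 2464 and 2084 (-0.99 ± 0.19, adjusted p 0.00425). Of 21 genes of collagen processing and crosslinking 5 were called higher and 0 lower (median 0.28), with 5 to 6 higher and 0 to 2 lower when 1 library was left out. The counts were 6 higher and 0 lower both with the covariate and without the low-muscle PTU libraries. Without the high-muscle PTU libraries 4 were called higher and 2 lower. Loxl1, a crosslinking enzyme of elastin, had 755, 681, 684 and 549.7 in the PTU libraries and 2131, 2922, 2190.5 and 2362 at 24 h (1.85 ± 0.12, adjusted p 3.58e-06). P4ha1, a prolyl hydroxylase, rose by 1.01 ± 0.15 (adjusted p 0.000803), and Serpinh1, the collagen chaperone HSP47, by 0.75 ± 0.18 (adjusted p 0.0140).

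Other matrix proteins had 9 of 27 called lower and 2 higher (median -0.41, 7 to 10 lower and 0 to 3 higher when 1 library was left out), with 7 lower under the covariate and 4 without the low-muscle PTU libraries. Fbln5 and Fbln2, fibulins of elastic fibres, changed by -1.42 ± 0.23 and -1.37 ± 0.20 (adjusted p 0.00145 and 0.000792), Fbln2 from 1683, 1784, 1355 and 862 to 499, 675, 529 and 501. In TGF-beta, activin and BMP signalling 7 of 25 were called lower and 3 higher (median -0.16), with 7 to 8 lower when 1 library was left out, 7 with the covariate and 2 without the low-muscle PTU libraries. Pmepa1, a target of TGF-beta that feeds back on its SMADs and is no member of the list, had 1104, 3471, 4113 and 3314 in the PTU libraries and 459, 478, 518 and 548 at 24 h (-2.58 ± 0.30, adjusted p 0.000174). Inhbb, the activin B subunit, had 319, 1306, 1336 and 773 in the PTU libraries and 142, 434, 104 and 183 at 24 h, with overlapping groups (-2.11 ± 0.48, adjusted p 0.0107). Tgfb2, a ligand, fell from 58.6, 67, 55 and 82.4 to 27, 23.3, 22.3 and 28.8 (-1.37 ± 0.20, adjusted p 0.000781), and Fstl1, a follistatin-like glycoprotein, by 0.87 ± 0.20 (adjusted p 0.00995). Markers of fibroblasts and progenitors had 3 of 12 called lower and 0 higher (median -0.50, 5 lower without 6 h replicate 2 or 24 h replicate 4), with summed counts of 22350 to 30390 in the PTU libraries and 17150 to 23550 at 24 h. Fap fell by 1.20 ± 0.17 and Lum by 1.08 ± 0.21 (adjusted p 0.000565 and 0.00396). The part of these cells in the matrix results was not tested.

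Caveola genes fell, with 5 of 10 called lower and 0 higher (median -0.85), and 5, 6 and 4 lower with the covariate and without the high-muscle and low-muscle PTU libraries. Caveolae are flask-shaped pits that cover much of the adipocyte surface. Cav1, caveolin 1, fell from 25293, 31990, 25893 and 22543 to 14001, 12592, 10491 and 13679 (-1.06 ± 0.13, adjusted p 0.000217) and Cav2, its partner, from 5917, 9896, 7345 and 7538 to 3297, 2801, 2472 and 3475 (-1.35 ± 0.16, adjusted p 0.000154). Pacsin3, a membrane-bending protein also made in muscle, fell from 665, 376, 330.3 and 665, highest in the libraries with much muscle RNA, to 251, 263, 198 and 252 (-1.08 ± 0.23, adjusted p 0.00733). Its change was -1.21 ± 0.11 with the covariate (adjusted p 2.89e-05). Without the high-muscle PTU libraries it was smaller, -0.54 (adjusted p 0.0404), and without the low-muscle ones larger, -1.46 (adjusted p 0.000882). The part of muscle in this fall was not tested further.

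Among 18 secreted factors 4 were called lower and 2 higher (median 0.12), the 4 becoming 2 without PTU replicate 2 or 24 h replicate 1 and without the low-muscle PTU libraries. Adipoq, adiponectin, fell from 69711, 95132, 72676 and 70959 to 32295, 35161, 33505 and 36565 (-1.17 ± 0.12, adjusted p 8.42e-05), and Rbp4, the retinol carrier, from 7210.1, 13072, 10520 and 11451 to 4701, 5803, 6055 and 5374 (-0.95 ± 0.17, adjusted p 0.00299). Apln, the peptide apelin, had 13.4, 32.3, 36.1 and 19.7 in the PTU libraries and 334, 119, 412 and 309 at 24 h (3.52 ± 0.41, adjusted p 0.000157), and Vegfa, the growth factor of blood vessels, rose from 4935, 3236, 3501 and 2786 to 7027, 6381, 7459 and 7481 (0.97 ± 0.16, adjusted p 0.00207). Of 21 transcription factors of adipocytes 3 were called higher and 3 lower (median -0.13), the 3 lower becoming 5 without 24 h replicate 2. Cebpb, an early factor of adipogenesis, rose from 541, 572, 632 and 753 to 1849, 1561, 2736 and 1820.5 (1.67 ± 0.22, adjusted p 0.000407), with 20.7% of its exonic bases shared with Tmem189 on the other strand, and Stat5b rose by 0.62 ± 0.11 (adjusted p 0.00279). Pparg, the master regulator of adipocytes, fell from 5515, 6885, 4573 and 5498 to 4134, 3147, 2694 and 3836 (-0.70 ± 0.17, adjusted p 0.0151), and its adjusted p was 0.0503 without 24 h replicate 3. Ebf1 and Zfp423, which act with it, changed by -0.63 ± 0.10 and -0.68 ± 0.14 (adjusted p 0.00113 and 0.00538).

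Breakdown of branched-chain amino acids, which adipocytes carry out at a high rate, had 5 of 18 called lower and 0 higher (median -0.26), with 4 to 6 lower when 1 library was left out, 4 with the covariate and 3 without the low-muscle PTU libraries. Acadsb fell from 5376, 5113, 4362 and 4338 to 2958, 3047, 3372 and 2858 (-0.65 ± 0.10, adjusted p 0.00111) and Mccc2, of leucine breakdown, by 0.61 ± 0.10 (adjusted p 0.00123).

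In oxidant defence 4 of 23 were called higher (median -0.15), and 2 were called lower, a share near the 9.62% of all genes, with 1 when any library other than PTU replicates 1 and 3 was left out. Ucp3, a relative of Ucp1 found mostly in muscle and brown fat, had 549.5, 503, 531 and 409 in the PTU libraries and 2219, 2682, 3499 and 2509 at 24 h (2.45 ± 0.16, adjusted p 3.82e-06). Its change was 2.45 with the muscle covariate, and it was called without the high-muscle and without the low-muscle PTU libraries (adjusted p 5.88e-05 and 0.000384). Gpx1, glutathione peroxidase, rose from 4752, 4242, 3836 and 3948 to 7726, 11504, 7756 and 8831 (1.09 ± 0.14, adjusted p 0.000266), and Sod2, the mitochondrial superoxide dismutase, by 0.66 ± 0.14 (adjusted p 0.00638). Cat, catalase, fell from 61770, 31203, 31143 and 25397 to 15946, 18542, 17796 and 16233 (-1.13 ± 0.23, adjusted p 0.00545). Autophagy and mitophagy had 7 of 23 called lower and 1 higher (median -0.18), with 5 to 9 lower when 1 library was left out and 6 with the covariate. Bnip3, a receptor for mitophagy, fell by 1.19 ± 0.19 and Atg7, needed to form autophagosomes, by 0.78 ± 0.13 (adjusted p 0.00135 and 0.00209).

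Clock genes had 3 of 18 called lower and 1 higher (median 0.07, 2 higher without PTU replicate 1 or 4). Nr1d1 (REV-ERBα) had 3288, 2656, 2868 and 2528 in the PTU libraries, 4811, 3456, 4765 and 3985 at 6 h and 807, 781, 673 and 1312 at 24 h, lower at 24 h than in the PTU group (-1.67 ± 0.19, adjusted p 0.000159) and than at 6 h (-2.25 ± 0.20, adjusted p 8.77e-05). Its relative Nr1d2 had 299.7, 607, 374 and 729 in the PTU libraries, 1423, 1283, 1323 and 1499.5 at 6 h and 169, 269, 161 and 212 at 24 h (-1.30 ± 0.25, adjusted p 0.00431), and Cry2, a repressor of the clock, fell by 1.05 ± 0.15 (adjusted p 0.000685). Since no hour of collection is given, the hour and the treatment cannot be told apart for these genes. Cdkn1a, the cell cycle inhibitor p21, whose RNA also varies over the day, had 366 to 535 in the PTU libraries, 365 to 504 at 6 h and 1209.6 to 2360.5 at 24 h (1.79 ± 0.20, adjusted p 0.000110).

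The remaining lists held few called genes in number. Of 37 proteasome genes 0 were called by edgeR (median -0.01), 5 had an unadjusted p under 0.05 and DESeq2 called 2, and of 7 class II antigen presentation genes these 3 counts were 0. Of 26 genes of the cell cycle and DNA replication 1 was called higher, of 12 complement genes 1 higher, of 20 genes of cholesterol synthesis and uptake 1 higher and 1 lower, of 14 genes of creatine and calcium cycling 1 higher and 1 lower, of 17 genes of protein folding in the endoplasmic reticulum 3 higher, of 11 glucocorticoid response genes 2 higher, and of 15 interferon response genes 3 higher and 1 lower. The called share was above the 17.1% of all genes for the interferon response (26.7%), the glucocorticoid response (18.2%) and protein folding (17.6%). In the last 2 lists all calls were higher, against 7.45% of all genes called higher. The interferon genes called higher were 0 to 4 when 1 library was left out. They were 1 with the covariate, 0 without the high-muscle and 1 without the low-muscle PTU libraries. The single calls of cholesterol synthesis, of the cell cycle and of creatine cycling each fell to 0 without at least 1 library, creatine cycling only in its gene called higher. Without the low-muscle PTU libraries 1 gene of protein folding and 1 of the glucocorticoid response were called higher. The summed counts of the glucocorticoid response were 7970 to 14130 in the PTU libraries and 10750, 96030, 26830 and 12540 at 24 h. Replicates 2 and 3 were the highest, as for Ucp1, Dio2 and Pdk4. Pdk4 is itself a member of the list and made up 18163 of the 26830 counts in replicate 3, against 17060 of the 96030 in replicate 2. The high sum of replicate 3 is therefore largely that of Pdk4 and is not a separate result.

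Further genes with large changes belonged to no list. Aspg, an asparaginase that also has lysophospholipase activity (chromosome 12, 112106679 to 112127559), had 9.61, 13.2, 20.8 and 18.4 in the PTU libraries and 1095, 531, 1154 and 1040.3 at 24 h (5.93 ± 0.37, adjusted p 2.33e-06). Adcy10, the soluble adenylyl cyclase, had 40.4, 21.5, 10.8 and 9.84 in the PTU libraries and 388, 180.4, 419 and 230.2 at 24 h (3.86 ± 0.44, adjusted p 0.000154). The pseudogene 9030619P08Rik had 0.902 to 5.76 in the PTU libraries and 161 to 282 at 24 h (adjusted p 1.07e-06). Among abundant genes that rose were Slc1a5, a glutamine transporter (7803, 9741, 9773 and 8586 to 24529, 26548, 22620 and 26501), and Glul, glutamine synthetase (21703, 13174, 11450 and 11944 to 26024, 35972, 45373 and 24483), with changes of 1.48 ± 0.11 and 1.18 ± 0.26 (adjusted p 8.87e-06 and 0.00844). Aoc3, an amine oxidase of the adipocyte surface, rose by 0.98 ± 0.15 (adjusted p 0.000918).

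On the falling side Car3, carbonic anhydrase 3, one of the most abundant transcripts of fat, fell from 446000, 502510, 359390 and 393010 to 114330, 116400, 118150 and 136480 (-1.81 ± 0.14, adjusted p 9.58e-06), the largest loss in counts of any gene called lower. Car3 is also made in slow muscle, and its change was -1.79 with the muscle covariate, -1.82 without the high-muscle and -1.79 without the low-muscle PTU libraries. Lhfpl2, a tetraspan membrane protein, had 809.9, 3175, 2324 and 1816 in the PTU libraries and 168, 280.3, 163 and 166 at 24 h (-3.38 ± 0.39, adjusted p 0.000154). Rasd1, a small G protein, fell from 1332, 2861, 3201 and 2726 to 469, 191, 241 and 509 (-2.84 ± 0.35, adjusted p 0.000220). Fmr1, the RNA-binding protein FMRP, fell from 1006, 5799, 3082 and 2923 to 599, 725, 593 and 629 (-2.33 ± 0.38, adjusted p 0.00152). Slc16a12, a creatine transporter, and Kcnk2, a potassium channel, changed by -2.49 ± 0.21 and -2.27 ± 0.27 (adjusted p 1.79e-05 and 0.000198). The antisense transcript 1500017E21Rik changed by -3.45 ± 0.37 (SE, adjusted p 9.66e-05), but shares 46.1% of its exonic bases with Hectd2 on the other strand. Among the other genes named, Bnip3 (22.3%), Ckm (15.5%), Mrpl12 (13.1%) and Kcnk2 (12.2%) share over 10% of their exonic bases with a gene on the opposite strand, and Nr1d1 shares 8.55% with Thra. Without a stated strand setting the reads of such pairs cannot be told apart. Mast cell markers also fell, with 4 of 5 called lower (median -1.04, 2 without PTU replicate 2 or 24 h replicate 1 or 3 and without the low-muscle PTU libraries), among them the proteases Tpsb2 (157, 255, 143 and 202 to 59.8, 120.3, 70 and 67.5) and Mcpt4 (219, 261, 149.8 and 209 to 59.8, 125, 87 and 87.4).

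Whether the 24 h level was already reached at 6 h was tested in the same fit as 24 h against 6 h, where 1329 of 17928 genes (7.41%) were called. Among the named genes 54 were called, 26 higher and 28 lower at 24 h, and 35 of the 54 kept the call when any 1 of the 12 libraries was left out. Most named genes were chosen for their change from PTU in these same 24 h libraries. That choice favours a difference from 6 h in the same direction, so the 54 cannot be read against the 7.41%. Scd1 differed by 1.33 ± 0.25 (SE, adjusted p 0.00912), with 6 h values of 208590, 168790, 262710 and 336490. Gpd2, Pdhb, Idh3a and Suclg1 were also higher at 24 h than at 6 h (1.04 ± 0.19, adjusted p 0.00943, for Gpd2 and 0.54 ± 0.11, adjusted p 0.0120, for Idh3a). Agpat9 (-2.15 ± 0.18, adjusted p 8.77e-05), Pmepa1 (-2.31 ± 0.30, adjusted p 0.00115), Col15a1 (-2.01 ± 0.22, adjusted p 0.000294), Acsl1 (-1.81 ± 0.26, adjusted p 0.00233), Car3 (-1.35 ± 0.14, adjusted p 0.000193) and Adipoq (-0.82 ± 0.12, adjusted p 0.00268) were lower. For Loxl1, Hk2, Pfkfb1 and Dio2 the difference missed the threshold, with 0.09 ± 0.12 (SE, adjusted p 0.675) for Loxl1, 0.02 ± 0.19 (SE, adjusted p 0.957) for Hk2 and -0.01 ± 0.58 (SE, adjusted p 0.994) for Dio2.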

How the data were processed

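RNA of mouse WAT was sequenced in 4 libraries each of the PTU, 6 h and 24 h groups, and groups and replicate numbers were taken from the labels. The authors prepared RNA with Trizol and libraries with the Lexogen SENSE total RNA kit, aligned reads to GRCm38 with Bowtie (version 2.2.6.2 in the submitters' processing notes), removed alignments of low quality and deposited raw counts per gene symbol from htseqcount. The annotation release, strand setting and treatment of overlapping genes are not given in the sources used here. Within 2% in every library, 86 rows copied another row. The cause was not tested.

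Rows whose symbol had become a date (15 of 47643) were left out. The 12 WAT libraries were fitted as 1 model of 3 groups with TMM factors (edgeR 4.0.16 on R 4.3.3). P-values are two-sided and adjusted over all 17928 genes tested, and the SE is the size of the log2 change divided by the square root of F. The 4 libraries of a group have separate labels that name no cage or litter, and p-values measure the spread between these samples. Any 2 libraries of a group differed by at least 10.8 times the counting variance. The procedure was tested on simulated data.

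The comparison, the members and the gene lists were chosen with earlier results of these data known. The genes named were taken from the 10 largest rises and falls among called genes with separate groups and a mean above 100. Further ones were the 5 largest differences in counts per direction, also among called genes with separate groups. Up to 4 called members per list and direction were added, with Acta1, Ckm, Mylpf, Hr and Klf9. Some genes that met this rule are not reported here. Alternatives were DESeq2 1.42.0, DESeq2 size factors (RLE), no filter, the 2 groups alone, a replicate block, the log2 of the summed fast muscle counts as a covariate, removal of muscle or copied rows, each library left out, and, chosen after seeing the data, the PTU libraries with high or low muscle counts left out. Positions and overlaps are from GENCODE M21 (GRCm38), and all 101 named symbols matched. Promoter windows are from RefSeq on GRCm38.p6.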

Additional observations from a re-analysis of the deposited data

Results flagged for a closer look

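For each named gene the change from PTU at 24 h was set against that at 6 h by a test of 24 h against 6 h in the same edgeR fit, and 54 genes differed at an adjusted p under 0.05. Most of these genes were chosen for their change from PTU in the same 24 h libraries, which favours a difference from 6 h in the same direction. The values in brackets are log2 of 24 h over 6 h. Genes above PTU at 24 h that were also higher at 24 h than at 6 h were 9030619P08Rik (2.57), Aspg (1.95), Acot11 (1.79), Hr (0.63), Adcy10 (1.59), Scd1 (1.33), Gpd2 (1.04), Cox7a1 (1.85), Acaa2 (0.63), Pdhb (0.96), Idh3a (0.54), Dlat (0.62), Suclg1 (0.93), Ndufb10 (0.56), Ndufs8 (0.58), Uqcrc1 (0.55), Mrpl12 (0.54), Hspd1 (0.63), Slc16a1 (2.195), P4ha1 (0.94), Serpinh1 (0.71), Cebpb (0.88), Cdkn1a (1.96), Ucp3 (0.74), Gpx1 (0.94) and Sod2 (0.60). Genes below PTU at 24 h that were also lower at 24 h than at 6 h were Agpat9 (-2.15), 1500017E21Rik (-1.58), Rasd1 (-2.03), Pmepa1 (-2.31), Slc16a12 (-1.09), Col15a1 (-2.01), Kcnk2 (-1.52), Car3 (-1.35), Lpl (-0.83), Adipoq (-0.82), Acsl1 (-1.81), Cidec (-1.63), Slc16a10 (-0.72), Dgat1 (-1.26), Plin1 (-0.89), Acadsb (-0.43), Mccc2 (-0.54), Pde3b (-0.68), Cav1 (-0.76), Cav2 (-0.998), Nr1d1 (-2.25), Nr1d2 (-2.77), Cry2 (-0.65), Bnip3 (-1.01) and Atg7 (-0.69). Above PTU at 24 h but lower than at 6 h were Slc1a5 (-0.42), Klf9 (-0.65) and Ppargc1a (-0.73). Of the 54, 19 lost the difference when at least 1 of the 12 libraries was left out, namely Hr, Adcy10, 1500017E21Rik, Slc1a5, Klf9, Cox7a1, Acaa2, Dlat, Ndufb10, Uqcrc1, Mrpl12, Ppargc1a, Hspd1, Acadsb, Pde3b, Serpinh1, Cebpb, Cry2 and Sod2. The hour of collection is not given, so it cannot be told apart from the time after TH for the clock genes Nr1d1, Nr1d2 and Cry2.

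In 22 of 238 groups of 4 libraries (9.24%) 1 library lay far from the other 3, where chance flags about 1 in 20 groups. Of these, 9 fell on PTU replicate 1 and 6 on 24 h replicate 2. PTU replicate 1 was the highest of its group for 1500017E21Rik (1851 normalised counts against 510.7 to 645.3), Glul (21700 against 11450 to 13170), Thrsp (78960 against 25790 to 32890), Cox10 (465 against 289.7 to 318.5), Cat (61770 against 25400 to 31200), Krt18 (307.4 against 2.707 to 7.183), Krt19 (319.9 against 14.44 to 18.45), the lymphatic endothelium markers (1283 against 777.2 to 815.7) and the mesothelium markers (867.5 against 73.03 to 75.01). Krt18 and Krt19 are themselves among the mesothelium markers, so their flags and that of the list are not separate results. At 24 h replicate 2 was the lowest for Col15a1 (838.9) and Thrsp (59030) and the highest for Lhfpl2 (280.3), Fbln2 (675), Bnip3 (3233) and Tpsb2 (120.3). PTU replicate 2 was the highest for Slc16a12 (559.1) and Adipoq (95130), PTU replicate 3 the highest for Acot11 (71.28) and the lowest for Idh3a (4441), and PTU replicate 4 the lowest for Acot2 (533.7). At 24 h replicate 3 was the highest for Plin1 (15230) and replicate 4 for the Schwann cell markers (5770). PTU replicate 1 was also 1 of the 2 PTU libraries with much skeletal muscle RNA, and the part of muscle in these values was not tested.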

How the results depend on the processing

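The 3060 calls fell to 2037 (883 higher) in the PTU and 24 h groups alone, and to 1439 (639 higher, 800 lower) without PTU replicates 2 and 3, which left that group 2 libraries. Leaving out 1 library gave 1957 (without PTU replicate 2) to 4264 (without PTU replicate 1) calls, 869 to 1864 higher and 1088 to 2400 lower. Without PTU replicates 1 and 4, Acta1 changed by 5.16 (adjusted p 0.0478) and Myl2 by 0.86 (adjusted p 0.770), both reversed, and the summed fast skeletal muscle counts differed by 4.678 on the log2 scale, against -1.624 without PTU replicates 2 and 3, 1.524 with all libraries and 0.4094 (without PTU replicate 2) to 2.793 (without PTU replicate 4) when 1 library was left out. The causes were not tested. No call changed direction by DESeq2 (3017 of 3060 kept and 751 others made, 443 adjusted p not given), with size factors (3041 and 74), with no filter (2363 and 191), with the muscle covariate (2551 and 191), without muscle rows (3028 and 95) or without copied rows (3010 and 7), and the share of calls that were higher stayed between 41.8% and 45.6% in all alternatives (43.7% in the analysis reported).

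With the replicate number as a block 2257 calls were kept and 55 others made, and of the genes named Myl2, Tnnt1, Krt18 and Krt19 lost their calls (adjusted p 0.104 to 0.164). The numbers did not pair the libraries, since the correlations of same-numbered libraries' deviations were 0.0983, -0.255, 0.383 and -0.131 and only replicate 3 correlated best with its own number.

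Of the 98 named genes called, 92 stayed called whichever of the 12 libraries was left out. The exceptions were Thrsp, Pparg, Myl2, Tnnt1, Krt18 and Krt19. In the PTU and 24 h groups alone Thrsp (0.0675), Myl2 (0.0588), Krt18 (0.0825) and Krt19 (0.0761) were lost. With 4 libraries a group, changes of genes with low values in the PTU group rest on few counts, and P-values measure the spread between these libraries.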
